A study of Mus musculus with 8 samples.

Results

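The messenger RNA of 9 enzymes of fatty acid oxidation was followed in haematopoietic stem cells (HSC) with and without E47. Of these, 7 work in mitochondria (Cpt1a, Cpt2, Acadvl, Acadl, Acadm, Hadha and Hadhb) and 2 in peroxisomes (Ehhadh and Hsdl2). They were found by the gene name on the array, an older alias of it or the probe's accession, which gave 9 of 27584 distinct names and 12 of the 41048 probes with a value on every array. Ehhadh and Hsdl2 were chosen by their measured log2 differences between KO and WT in these same arrays, so those differences are described here without a test. The others were taken up as enzymes of the same pathway. Each of the 9 genes passed the filter on low signals, which asked for 1 probe well above background on each array of some group. Ehhadh met it only through the KO arrays from secondary recipients, and Acadl, Acadm, Hadha and Hadhb only through the secondary groups, where their signals were high. A higher level in those groups is thus partly built into the filter, and their recipient differences are descriptions.

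The study measured 8 one-colour arrays, 2 for each of 4 groups. The groups were wild-type (WT) and E47 knockout (KO) HSC of donor origin, sorted out of primary or of secondary recipient mice. E47 is a basic helix-loop-helix transcription factor and a splice product of the gene Tcf3. The labels name no strain, age, sex, host cells or knockout allele, and do not say whether a group's arrays come from different sorts of cells, so the p-values may measure technical spread only. The messenger RNA of the sorted cells was amplified by a PCR of all transcripts before labelling, which can add to the spread between arrays.

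Fatty acids are burned by beta-oxidation, which cuts an acyl-CoA chain shorter step by step. Cpt1a, on the outer mitochondrial membrane, joins the chain to carnitine and sets the pace of its entry, and Cpt2 on the inner membrane turns it back into acyl-CoA. Acyl-CoA dehydrogenases take the first step, each on its own range of chain lengths: Acadvl on very long, Acadl on long and Acadm on medium chains. Hadha and Hadhb form the trifunctional protein, which carries out the remaining steps on long chains. Peroxisomes shorten chains and dicarboxylic acids that mitochondria handle poorly, with Ehhadh as the L-bifunctional enzyme of hydration and dehydrogenation. Hsdl2 is a peroxisomal protein of the short-chain dehydrogenase family whose substrate is less well known. In HSC, fatty acid oxidation has been linked to self-renewal through the nuclear receptor Ppard.

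The sequences just before the start of Ehhadh and Hsdl2 are shown because E47 binds DNA at E-boxes, with the letters CANNTG, and because these genes carry the genotype differences described below. The region of Hadhb is shown because it lies between the starts of Hadha and Hadhb, which stand head to head 273 bases apart. Each run gives the 250 bases before the start in RefSeq's annotation of GRCm38.p6, on the strand of the gene, with E-boxes in capitals. The regions are chr16:21787835-21788084 on the minus strand for Ehhadh, chr4:59581313-59581562 on the plus strand for Hsdl2 and chr5:30155003-30155252 on the plus strand for Hadhb.
Ehhadh: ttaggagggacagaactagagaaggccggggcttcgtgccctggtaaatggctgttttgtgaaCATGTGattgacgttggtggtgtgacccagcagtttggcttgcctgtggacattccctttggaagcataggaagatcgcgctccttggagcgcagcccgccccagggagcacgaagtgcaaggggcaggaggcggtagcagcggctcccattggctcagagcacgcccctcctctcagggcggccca
Hsdl2: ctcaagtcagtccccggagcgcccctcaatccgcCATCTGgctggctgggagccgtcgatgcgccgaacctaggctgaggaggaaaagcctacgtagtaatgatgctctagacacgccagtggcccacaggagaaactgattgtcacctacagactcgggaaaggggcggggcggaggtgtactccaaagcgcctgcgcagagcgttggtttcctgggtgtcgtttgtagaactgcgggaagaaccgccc
Hadhb: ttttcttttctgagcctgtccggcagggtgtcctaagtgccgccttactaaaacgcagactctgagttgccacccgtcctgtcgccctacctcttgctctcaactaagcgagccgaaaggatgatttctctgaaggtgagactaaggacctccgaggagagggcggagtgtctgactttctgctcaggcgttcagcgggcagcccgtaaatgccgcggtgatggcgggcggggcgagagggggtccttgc
An E-box reads as CANNTG on both strands. Ehhadh has 1 (CATGTG), Hsdl2 has 1 (CATCTG), Cpt1a has 1 (CAGCTG), Acadl has 1 (CAGTTG) and Cpt2 has 2 (CAGGTG and CAAGTG), while the regions of Acadm, Acadvl, Hadha and Hadhb hold none. Of 32851 such regions, 66.2% hold at least 1 E-box, so 5 of 9 is no more than the share of all genes. The regions of Hadha and Hadhb overlap over most of their length, on opposite strands, so their counts are not independent. The form CAGGTG, searched on both strands and contained in the E-box count, is in 17.2% of all regions and in that of Cpt2 alone among the 9. The strict form of the direct repeat bound by peroxisome proliferator-activated receptors, AGGTCA repeated after 1 free base, is in 0.0335% of regions on either strand and in 0 of these 9. These matches describe letters only and say nothing on binding.

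Each gene was read by a probe of 60 bases, placed by the files in mm8, and whether a probe lies in coding sequence or in a UTR was not analysed here. The probe for Hsdl2, at chr4:59711730-59711789 on the plus strand, carries the largest genotype difference of the 9 over all 8 arrays and is shown with no part in capitals.
Hsdl2 probe: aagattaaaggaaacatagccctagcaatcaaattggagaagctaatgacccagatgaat
Ehhadh was read at 21675824 to 21675883 on chromosome 16 (minus strand). Cpt1a has a pair of probes on chromosome 19 (plus strand), at 3384629 to 3384688 and at 3385374 to 3385433, whose starts lie 745 bases apart. Cpt2 was read at 107401950 to 107402010 on chromosome 4, Acadm at 153860092 to 153860151 on chromosome 3 and Acadl at 66764307 to 66764366 on chromosome 1, all on the minus strand. The probe of Acadvl lies at 69826443 to 69826502 on chromosome 11 (minus strand). Hadha at 30450462 to 30450521 (minus strand) and Hadhb at 30515041 to 30515100 (plus strand) are both on chromosome 5.

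Arrays differed in brightness. On replicate 2 of WT and of KO from primary recipients, called the dim arrays below, 41.9% and 35.4% of spots were well above background, against 72.2% to 90.7% on the others, and only 3 of the 9 enzymes were well above background on each, against 8 or 9 of 9 elsewhere. Genotype and slide cannot be told apart, because slide 1 carried all 4 WT arrays, slide 2 the KO arrays from primary and slide 3 those from secondary recipients. Of 13 HSC marker genes, 12 or 13 were well above background on the 4 arrays from secondary recipients and on replicate 1 of both primary groups, and 7 (WT) and 6 (KO) on the dim arrays. Markers of granulocytes and monocytes differed with the recipient: 14 of 15 were on the array, 13 or 14 of them were well above background on each primary array and 11 to 13 on each secondary array, and they made up 0.289% to 1.503% of the summed signal in primary and 0.0134% to 0.0399% in secondary recipients. S100a8, a defining gene of neutrophils, had signals of 10769 to 70779 in primary and 2 to 81 in secondary recipients. Not every marker of this list moved that way. Prtn3 had signals of 13 to 645 in primary and 796 to 3467 in secondary recipients. The signals of others, such as Elane, Itgam and Csf1r, overlapped between recipients. The probe with the highest mean for Tcf3, the targeted gene, read 104.4 and 1277.9 (WT) or 83.8 and 101.2 (KO) for primary recipients, then 1778.2 and 1773.4 (WT) or 1664.2 and 167.4 (KO) for secondary recipients. No source used here gives its place relative to the deletion, and E12 comes from the same gene, so it checks nothing about the labels.

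**Figure D1:**
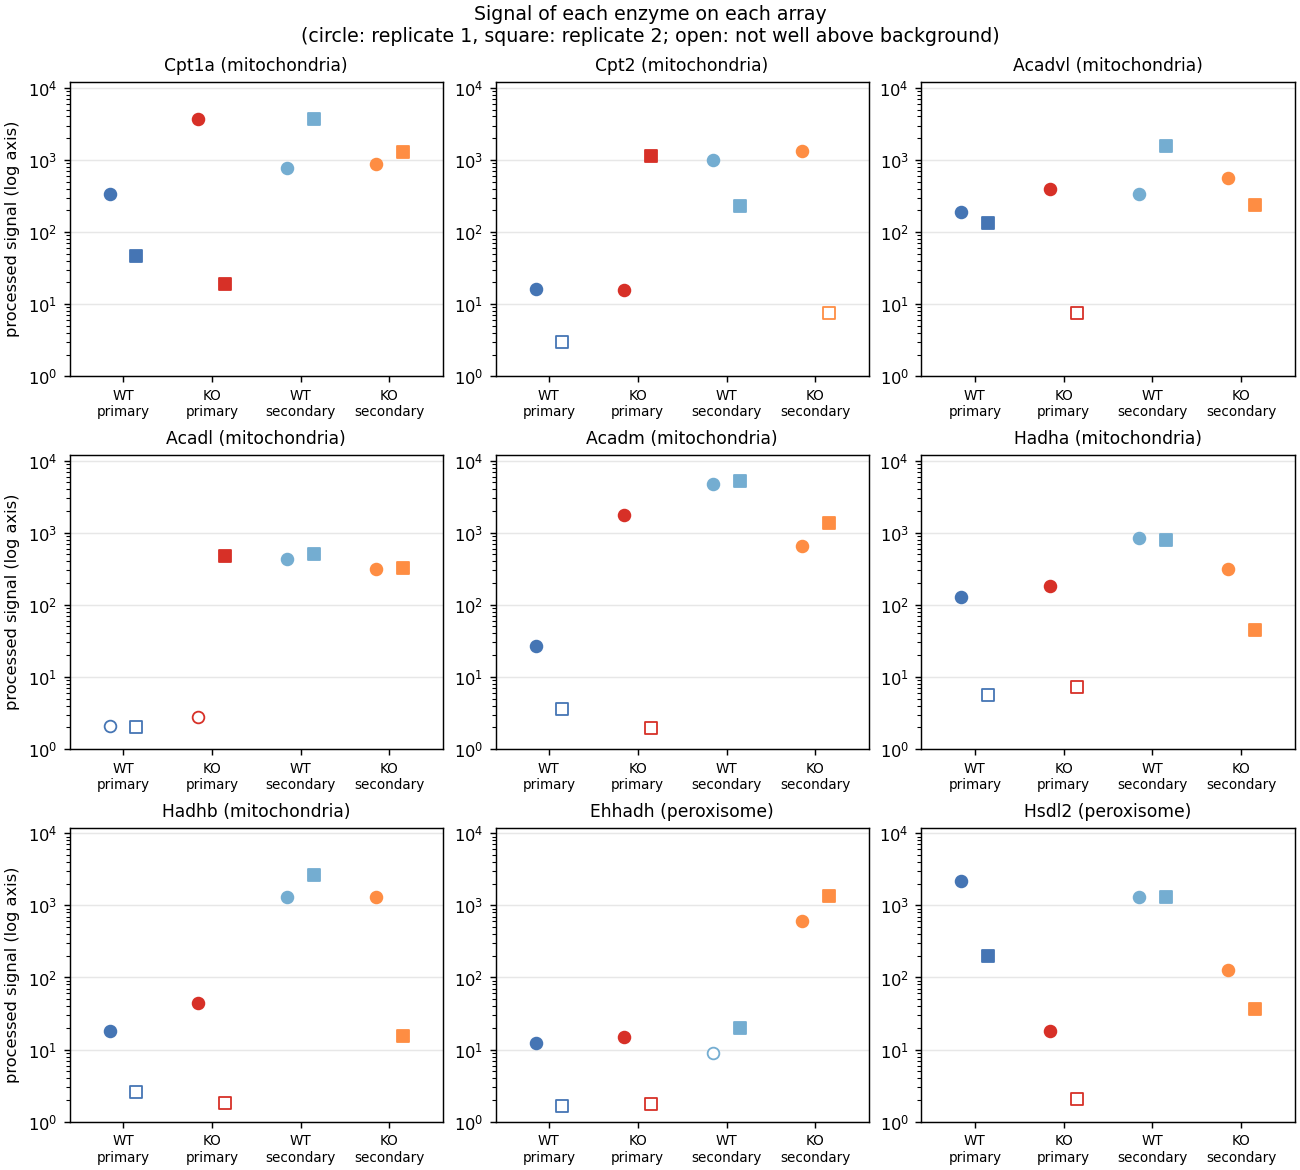
Processed signal (log axis, no unit) of the representative probe of each enzyme on the 8 arrays, by group, with circles for replicate 1, squares for replicate 2 and open symbols where the probe was not well above background. Ehhadh stands at 604.4 and 1330.4 in KO from secondary recipients and at 19.7 or less elsewhere, and Hsdl2 is at 2188.8 and 195.8 in WT against 18.4 and 2.1 in KO from primary recipients.

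Ehhadh had clear signal in only 1 of the 4 groups. In KO cells from secondary recipients its signal was 604.4 and 1330.4. WT cells from secondary recipients gave 9.1 and 19.7, the first of these not well above background. For primary recipients the signals were 12.5 and 1.7 (WT), 15.1 and 1.8 (KO), with both dim arrays not well above background. Both KO arrays from secondary recipients thus lay above all 6 others. On the scaled level, which is log2 of the signal minus the array's 75th percentile, the group means were 0.76 ± 1.26 in KO and -5.88 ± 0.94 in WT from secondary recipients (SD, n = 2 arrays each, as for every group mean here). They were -4.00 ± 0.77 in KO and -4.53 ± 0.20 in WT from primary recipients. In the order of levels KO from secondary recipients came first, without overlap. The other 3 groups were at or near background and have no order: WT from secondary recipients had the lowest scaled mean, but its mean percentile among all probes of an array was 22.6, against 15.2 in WT and 17.6 in KO from primary recipients.

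Log2 changes are printed relative to the median change of all 22938 genes tested, since the median gene itself shifted by -1.04 to 0.47 between groups. For Ehhadh this change was 6.17 (SE 1.11) in KO against WT from secondary recipients and 0.26 (SE 1.11) from primary recipients. Within KO cells, secondary against primary recipients gave 5.29 (SE 1.11), and within WT cells -0.31. The values for KO cells from secondary recipients rest on 2 arrays of 1 slide, and the KO arrays from primary recipients lie on another. Over both recipients the genotype change was 3.25 (SE 1.28), and the arrays of KO and WT overlapped. In secondary recipients 34.3% of all genes tested lay higher in both KO than in both WT arrays; Ehhadh was chosen by this difference, so nothing is read from its place among them.

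Hsdl2 had lower signal in KO than in WT cells in both recipients. For primary recipients the signals were 2188.8 and 195.8 (WT), 18.4 and 2.1 (KO), the last not well above background. For secondary recipients they were 1292.4 and 1306.8 (WT), 125.5 and 36.4 (KO). On the scaled level all 4 WT arrays lay above all 4 KO arrays. The share of all genes tested that did so was 0.506%, from which nothing is read, as Hsdl2 was chosen by this difference. The scaled group means were 2.63 ± 0.21 (WT, primary), 0.72 ± 0.16 (WT, secondary), -2.97 ± 0.81 (KO, secondary) and -3.74 ± 0.74 (KO, primary). Only the last neighbours in this order, the KO groups, overlapped. KO minus WT on the log2 scale came to -6.64 (SE 0.99) for primary and -4.17 (SE 0.99) for secondary recipients, and to -5.36 (SE 0.80) over both. In the single recipients the lack of overlap was shared by 9.26% (primary) and 12.2% (secondary) of all genes tested. Between recipients Hsdl2 differed less, with a change of -0.88 (SE 0.99) in WT and 1.297 (SE 0.99) in KO cells. Over both genotypes that change was 0.18 relative to the median gene and -0.58 before centring. This genotype difference cannot be told apart from a difference between slides.

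Over the 8 arrays the levels of both peroxisomal enzymes correlated at r = -0.54, given as a description. The genes whose levels over the 8 arrays were most like those of Ehhadh were Sdr16c6 (r = 0.985), Spata18 (0.969), Dusp13 (0.968), Slc7a13 (0.968) and Eogt (0.967). Most like Hsdl2 were Ppan (r = 0.965), Slc35b1 (0.955), Adsl (0.952), Uqcr11 (0.933) and Sdhc (0.900). These were the highest correlations among those of the 22938 genes tested that have a symbol, with clone-style names left out. They come from 8 arrays that share slides and amplification, and carry no p.

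Cpt1a was the only enzyme of the 9 well above background on all 8 arrays, with its brighter probe. In primary recipients that probe read 339.7 and 45.96 for WT, 3727.6 and 18.9 for KO. In secondary recipients it read 779.6 and 3712.9 for WT, 882.6 and 1291.0 for KO. High and low arrays occurred within the same group, and no pair of groups was apart in either genotype or recipient contrast. The scaled group means lay between 0.25 ± 0.22 (WT, primary) and 1.68 ± 2.43 (KO, primary). KO minus WT on the log2 scale came to 1.17 (SE 1.45) for primary and -0.57 (SE 1.45) for secondary recipients, each smaller than its standard error. Secondary against primary recipients gave 1.90 (SE 1.45) in WT and -0.14 (SE 1.45) in KO cells.

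The other Cpt1a probe, printed in 10 spots and 745 bases away, gave a different picture. In primary recipients it read 3.7 and 1.8 for WT, 11.6 and 1.8 for KO, of which only the 11.6 was well above background. From secondary recipients it read 2918.4 and 1146.8 for WT, 496.9 and 7217.8 for KO. All 4 secondary arrays were thus above all 4 primary arrays, as for 3.09% of all genes tested by their representative probes. The log2 change of secondary against primary recipients was 6.85 (SE 1.11) over both genotypes, with a limma adjusted p of 0.0619 among all probes, against 0.64 (SE 1.01) for the brighter probe in the same fit of single probes. In that fit the other probe passed the filter only through the secondary groups, where its signals were high, so its recipient difference is a description. In WT cells, whose primary arrays were both not well above background, the other probe was at least 29.2-fold higher in secondary recipients. The 2 probes correlated at r = 0.06 over the 8 arrays. For Cpt1a the recipient difference therefore depends on the probe, and neither probe passed the test.

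**Figure D2:**
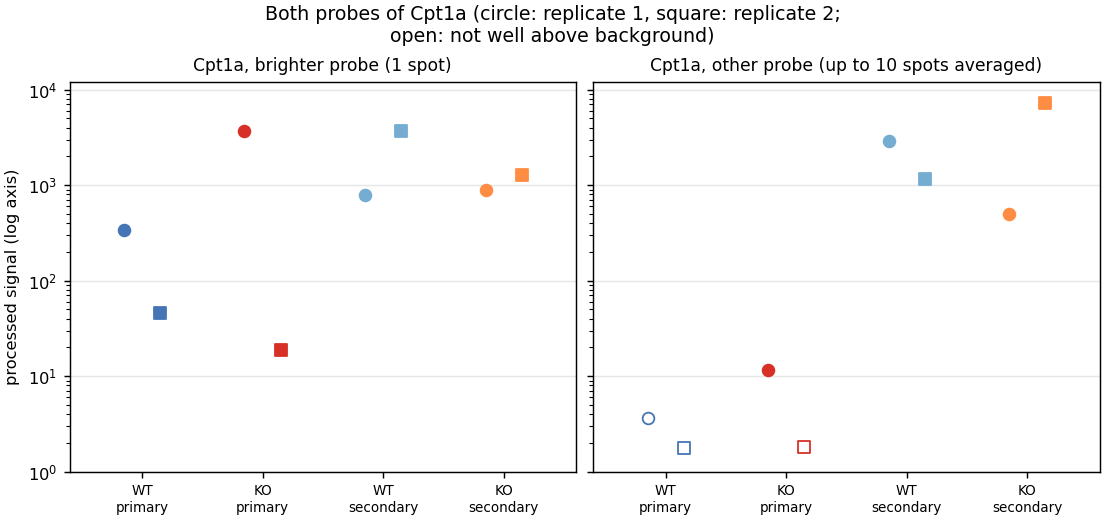
Processed signal (log axis, no unit) of both Cpt1a probes on the 8 arrays by group, with circles for replicate 1, squares for replicate 2 and open symbols for signals not well above background. The brighter probe spans 18.9 to 3727.6 within KO cells from primary recipients, while the other lies between 1.8 and 11.6 in primary and between 496.9 and 7217.8 in secondary recipients.

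Cpt2, the second carnitine palmitoyltransferase, varied by as much within groups as between them. WT cells from primary recipients gave signals of 16.0 and 3.0, KO cells 15.5 and 1127.8. For secondary recipients WT cells gave 1013.0 and 232.3, KO cells 1342.7 and 7.6, and the 3.0 and the 7.6 were not well above background. The replicates of both KO groups lay on opposite sides, with a high value on the dim array of the primary group and on replicate 1 of the secondary group. Scaled means were 0.68 ± 7.34 (KO, primary), -0.70 ± 1.35 (WT, secondary), -2.39 ± 4.82 (KO, secondary) and -3.94 ± 0.53 (WT, primary). The log2 change of KO against WT in primary recipients, 4.35 (SE 3.38), became -0.35 without both dim arrays. WT cells had 4.27 (SE 3.38) in secondary against primary recipients. Both secondary arrays lay above both primary arrays, as for 15% of all genes tested.

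Acadm, the medium-chain acyl-CoA dehydrogenase, had the largest recipient difference in WT cells among the representative probes of the mitochondrial enzymes; in the fit of single probes the other Cpt1a probe had 7.38 against 6.88 for Acadm. WT cells gave signals of 26.5 and 3.6 in primary and 4723.2 and 5164.6 in secondary recipients. KO cells gave 1775.9 and 2.0 in primary and 649.2 and 1339.4 in secondary recipients, and the dim arrays (3.6 and 2.0) were not well above background. The KO cells from primary recipients thus spanned nearly the whole range, while the arrays of each other group lay closer together. In the order of scaled means, WT from secondary recipients (2.65 ± 0.24) came first and without overlap, then KO from secondary (0.81 ± 1.20), KO from primary (-0.48 ± 3.97) and WT from primary recipients (-3.44 ± 0.21), where neighbours overlapped. The log2 change of secondary against primary recipients was 7.12 (SE 1.77) in WT cells, with a limma adjusted p of 0.379 (0.181 to 0.682 over the alternative settings), and 1.83 (SE 1.77) in KO cells. In secondary recipients both KO arrays lay below both WT arrays, as for 12.2% of all genes tested. The log2 change was -2.31 (SE 1.77).

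Acadl, the long-chain enzyme, was not well above background in 3 of the 4 primary arrays. Those gave 2.1 and 2.0 in WT and 2.8 in KO. The fourth, the dim KO array, read 471.9. Secondary recipients gave 435.9 and 501.9 in WT and 317.1 and 320.3 in KO, a narrow span. In WT cells Acadl was at least 7.47-fold higher in secondary than in primary recipients, and the fitted log2 change was 5.99 (SE 3.24). In KO cells it was 0.98 (SE 3.24), where the dim array decides the value: without it the change was 6.48. Between genotypes in secondary recipients Acadl stood at -0.45 relative to the median gene and 0.01 before centring.

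Acadvl, the very-long-chain enzyme, differed least between groups. WT cells from primary recipients gave signals of 189.4 and 134.8, KO cells 393.8 and 7.5, the 7.5 not well above background. For secondary recipients the signals were 336.7 and 1573.4 (WT), 556.5 and 238.0 (KO). Every pair of neighbouring groups overlapped on the scaled level, whose means ran from 0.60 ± 1.91 (WT, primary) to -0.60 ± 1.07 (KO, primary). Log2 changes were between -1.47 and 0.59 in the 4 pairwise comparisons, each with an SE of 1.37. In WT cells the recipient change was 0.32 relative to the median gene and -0.71 before centring.

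Hadha and Hadhb, the alpha and beta subunits of the trifunctional protein, had the most alike levels of the 36 pairs among the 9 genes, with r = 0.80 over 8 arrays. For primary recipients Hadha read 128.6 and 5.6 (WT), 184.6 and 7.3 (KO), with both dim arrays not well above background. For secondary recipients it read 851.9 and 793.6 (WT), 315.8 and 45.0 (KO). Hadhb gave 18.0 and 2.6 (WT), 44.8 and 1.8 (KO) for primary recipients, again not well above background on the dim arrays. For secondary recipients Hadhb gave 1294.7 and 2624.0 (WT), 1295.4 and 15.5 (KO). For both subunits WT cells from secondary recipients had the highest group mean, and replicate 2 of KO from secondary recipients was far below replicate 1.

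In WT cells the change of secondary against primary recipients was 3.07 (SE 1.12) for Hadha and 6.20 (SE 1.77) for Hadhb. For each, both secondary arrays lay above both primary arrays, as for 15% of all genes tested. In KO cells the change was -0.45 (SE 1.12) for Hadha and 1.82 (SE 1.77) for Hadhb, and the groups overlapped. KO against WT in secondary recipients gave -2.69 (SE 1.12) for Hadha and -3.60 (SE 1.77) for Hadhb. Hadha lay lower without overlap, as did 12.2% of all genes tested, while the arrays of Hadhb overlapped. In primary recipients the values were 0.54 (SE 1.12) and 0.49 (SE 1.77). Hadha has a further pair of probes, 27589 and 34423 bases away, of which 1 was well above background on 2 arrays (86.3 in WT and 25.7 in KO, replicate 1 from secondary recipients) and the other on 0 of 8.

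**Figure D3:**
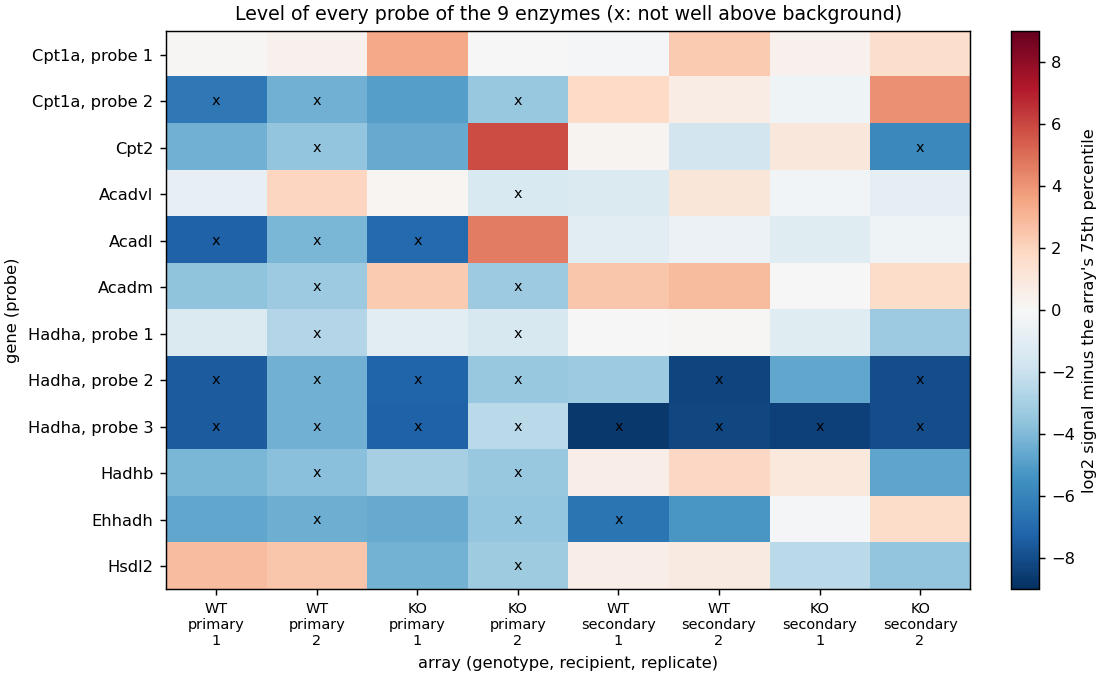
Level of each of the 12 probes on each of the 8 arrays, as log2 signal minus the array's 75th percentile (colour bar), with x where the probe was not well above background. Probe 1 of a gene is its representative, and the probes of Cpt1a, Acadl, Acadm and Hadhb show high levels on arrays of more than 1 group, whereas Ehhadh is high only in KO from secondary recipients.

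KO and WT cells were compared in each recipient to ask which of these transcripts differ without E47. In primary recipients 0 of 7 mitochondrial enzymes and 0 of 22938 genes (0%) passed the test at a limma adjusted p under 0.05, and the lowest adjusted p was 0.997. At an unadjusted p under 0.05 stood 0 of 7 mitochondrial enzymes and 3.95% of all genes tested. The change lay above the median gene for 6 of 7 mitochondrial enzymes, with a median of 1.17 among them, where the quartiles of all genes were -0.99 and 0.79. On the scaled level only Hadhb lay higher in both KO than in both WT arrays, as did 16.5% of all genes tested, but its dim arrays were not well above background. With quantile normalization its change was -0.84 in place of 0.49. Only Hsdl2 lay lower, as did 9.26% of all genes tested. Cpt2 had 4.35 (SE 3.38), which became -0.27 without the dim KO array. Acadl, not well above background on either WT array, was at least 5.56-fold higher in KO by the mean of its arrays (fitted change 4.26, SE 3.24), but stood at -0.96 without the dim KO array. With the other KO array, replicate 1, left out instead, Cpt1a stood at -0.796 and Acadm at -0.371. In that setting Cpt2 and Acadl rose to 9.287 and 9.799, Hadha and Hadhb stayed barely above the median gene, and Acadvl stayed below it. The higher values of Cpt1a, Acadm, Cpt2 and Acadl thus each rested on a single KO array.

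In secondary recipients the change in KO against WT was below the median gene for 7 of 7 mitochondrial enzymes, with a median of -2.16. The values ran from -3.60 (Hadhb) to -0.45 (Acadl). These are representative probes, and the other Cpt1a probe stood at 0.21 in the fit of single probes. With 1 array left out, Cpt1a reached up to 0.58, Cpt2 1.31 and Acadvl 0.24, while Acadm, Acadl, Hadha and Hadhb stayed below the median gene. None of the 7 passed the test: the lowest limma adjusted p among them was 0.979, and 0 of 22938 genes (0%) passed. At an unadjusted p under 0.05 stood 0 of 7 and 5.39% of all genes tested. Both KO arrays lay below both WT arrays for Acadm, Hadha and Hsdl2, as did 12.2% of all genes. The median over the 9 enzymes, also -2.16, was -0.72 without replicate 2 of KO from secondary recipients. Over both recipients the genotype median of the mitochondrial enzymes was 0.23, and 0 of 7 of them and 0% of genes passed (lowest adjusted p 0.856 over all genes, limma). At an unadjusted p under 0.05 stood 0 of 7 mitochondrial enzymes against 4.62% of all genes. No enzyme lay higher in all 4 KO than in all 4 WT arrays, as 1.27% of genes did.

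Secondary and primary recipients were compared within each genotype, which in WT cells is a comparison within 1 slide. In KO cells the groups lie on slides 2 and 3, so recipient and slide cannot be told apart there. In WT cells 7 of 7 mitochondrial enzymes lay above the median gene, with a median change of 4.27 and values from 0.32 (Acadvl) to 7.12 (Acadm), where the quartiles of all genes were -1.03 and 1.67. Cpt2, Acadm, Acadl, Hadha and Hadhb lay higher on both secondary than on both primary arrays, as did 15% of all genes tested. Hsdl2 lay lower without overlap, as did 40.6% of all genes; so did the scaled level of Ehhadh, whose signals here were at or near background and have no order. None passed the test (0 of 9 and 0% of genes, lowest limma adjusted p 0.379 among the enzymes). At an unadjusted p under 0.05 stood 2 of 7 mitochondrial enzymes, Acadm and Hadhb, and 12.2% of all genes, and both had passed the filter only through the secondary groups. The median over the 9 enzymes, 3.07, was 2.12 without replicate 2 of WT from primary recipients.

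In KO cells 4 of 7 mitochondrial enzymes lay above the median gene, with a median of 0.59. Among the representative probes only that of Ehhadh lay higher without overlap, as did 12.6% of all genes, and none lay lower, as did 28.7%. The other Cpt1a probe also lay higher without overlap. Again 0 of 9 enzymes and 0% of genes passed (lowest limma adjusted p 0.687 over all genes), and 0 of 7 mitochondrial enzymes against 6.01% of genes had an unadjusted p under 0.05. Over both genotypes 9 of 9 enzymes lay above the median gene, with a median of 1.28. The values were 4.44 (SE 1.43) for Acadm, 3.98 (SE 1.35) for Hadhb and 3.45 (SE 2.29) for Acadl followed by 1.28 (SE 0.90) for Hadha. Cpt1a, Cpt2 and Acadvl stood at 0.85, 0.84 and 0.43, each within its standard error. Before centring Acadvl stood at -0.33. None of the 9 passed (0% of genes, lowest limma adjusted p 0.245 among them), and 2 of 7 mitochondrial enzymes, again Acadm and Hadhb, against 19.5% of all genes had an unadjusted p under 0.05. By its representative probe no enzyme kept all 4 secondary above all 4 primary arrays, as 3.09% of genes did, or below, as 12.9% did. The other Cpt1a probe did keep all 4 secondary arrays above. Granulocyte and monocyte markers, taken as a sum, moved with the recipient in the opposite direction, at 0.289% to 1.503% of the summed signal in primary and 0.0134% to 0.0399% in secondary recipients. Not each marker of the list did so. Their part in these values was not tested, and in cells measured in bulk fewer cells of a type and less RNA per cell cannot be told apart.

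Without both dim arrays, Acadl had a log2 change of 6.89 in this last comparison. Acadl had passed the filter only through the secondary groups, so this value is no independent sign of a difference. In that setting each primary group is left with 1 array, whose spread is taken from the other groups. No test result is therefore read from it.

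**Figure D4:**
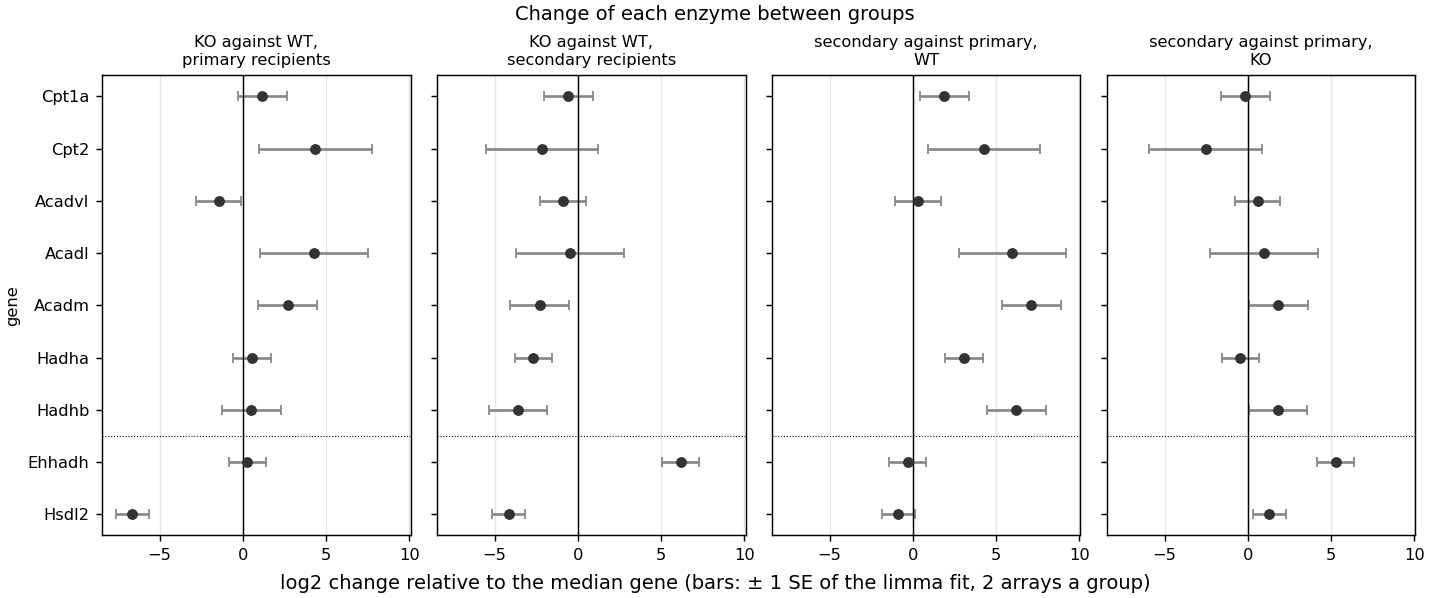
Log2 change of each enzyme relative to the median gene in the 4 pairwise comparisons (points) with 1 standard error of the limma fit (bars), 2 arrays in each group, mitochondrial enzymes above the dotted line and peroxisomal ones below. All 7 mitochondrial points lie above 0 for secondary against primary recipients in WT and below 0 for KO against WT in secondary recipients, and the bars of several reach past 0.

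The interaction asks whether the genotype difference differs between recipients, or equally whether the recipient difference differs between genotypes. As the KO groups lie on slides 2 and 3 and all WT arrays on slide 1, it cannot be told apart from slide. The interaction lay below the median gene for 6 of 7 mitochondrial enzymes, with a median of -4.19. Cpt2 had -6.61 (SE 4.78), Acadm -5.09 (SE 2.50), Acadl -4.81 (SE 4.58), Hadhb -4.19 (SE 2.50), Hadha -3.32 (SE 1.58) and Cpt1a -1.84 (SE 2.05), while Acadvl stood at 0.47 (SE 1.93). None of these passed the test (0 of 7 and 0% of genes, lowest limma adjusted p 0.9998 over all genes), and 0 of 7 mitochondrial enzymes against 3.71% of all genes had an unadjusted p under 0.05. A lower mitochondrial level in KO cells that holds only in secondary recipients was therefore not shown. The value of Ehhadh was 5.80 and that of Hsdl2 2.37, given as descriptions.

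The rest of the pathway was taken from lists of 64 genes, of which 55 are not among the 9 and 62 were tested. In each of the 7 comparisons 0 genes of these lists passed in either direction. Secondary against primary recipients over both genotypes had the most genes at an unadjusted p under 0.05, 17 of 62 against 19.5% of all genes tested, and 44 of 62 lay above the median gene with a median of 0.84. By list, 15 of 18 genes of mitochondrial beta-oxidation lay above the median gene (median 1.501), as did 14 of 19 of peroxisomal beta-oxidation (median 1.14), 5 of 7 of the carnitine shuttle (median 0.84) and 4 of 5 acyl-CoA synthetases (median 1.80). Of the regulators of the pathway, such as the PPAR receptors and their coactivators, 6 of 13 lay above, with a median of -0.39. The lists hold the 9 enzymes too, and the 53 other genes tested had a median of 0.37. Some of these other genes, such as Echs1, also passed the filter only through secondary groups. For such genes a higher level in secondary recipients is partly built into the filter, so these counts and medians are descriptions.

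Among the genes outside the 9, Hadh and Acox3 had the lowest p for the recipient difference. Hadh, the mitochondrial 3-hydroxyacyl-CoA dehydrogenase for shorter chains, read 33 and 1.7 (WT) and 11 and 1.8 (KO) for primary, then 1843 and 1622 (WT) and 780 and 1494 (KO) for secondary recipients. Its log2 change was 5.83 (SE 0.73) over both genotypes, with a limma adjusted p of 0.0613, and was 5.98 in WT cells. In KO cells, whose primary arrays were both not well above background, Hadh was at least 16.9-fold higher in secondary recipients. Acox3, a peroxisomal acyl-CoA oxidase, was not well above background on any of the 4 primary arrays (1.8 to 4.3) and read 8065 and 1431 (WT), 2192 and 5292 (KO) for secondary recipients. It was thus at least 54.2-fold higher in secondary recipients over both genotypes, with a limma adjusted p of 0.0736. Hadh and Acox3 had both passed the filter only through the secondary groups, where their signals were high. Their recipient differences are thus partly built into the filter and are descriptions. All 4 secondary arrays lay above all 4 primary arrays for both genes, as for 3.09% of all genes tested, and neither passed the test.

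Between genotypes in secondary recipients the lowest p outside the 9 belonged to Decr1 and Ppargc1b. Decr1, the mitochondrial 2,4-dienoyl-CoA reductase for unsaturated chains, read 125 and 602 (WT), 4.2 and 2.8 (KO), the latter not well above background, so it was at least 21.8-fold lower in KO (limma adjusted p 0.821). In primary recipients it was well above background on 1 of 4 arrays, at 15 in WT. This probe was thus well above background on both arrays only in WT from secondary recipients, and its fold difference is a description. Ppargc1b, a coactivator of mitochondrial genes, stood at 3.37 (SE 1.39, limma adjusted p 0.903). In primary recipients the lowest p belonged to Acaa1b, a peroxisomal thiolase, at 2.13 (SE 1.15), and to Decr2, the peroxisomal dienoyl-CoA reductase, which was well above background on 1 KO array (404) and on 0 of 2 WT arrays. Over both recipients Esrra, a nuclear receptor that drives oxidative genes, had 1.96 (SE 0.87) with a limma adjusted p of 0.856, beside Decr1. For the interaction Decr1 (-5.25) and Cpt1c (4.18) had the lowest p, with a limma adjusted p of 0.9998 for both.

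**Figure D5:**
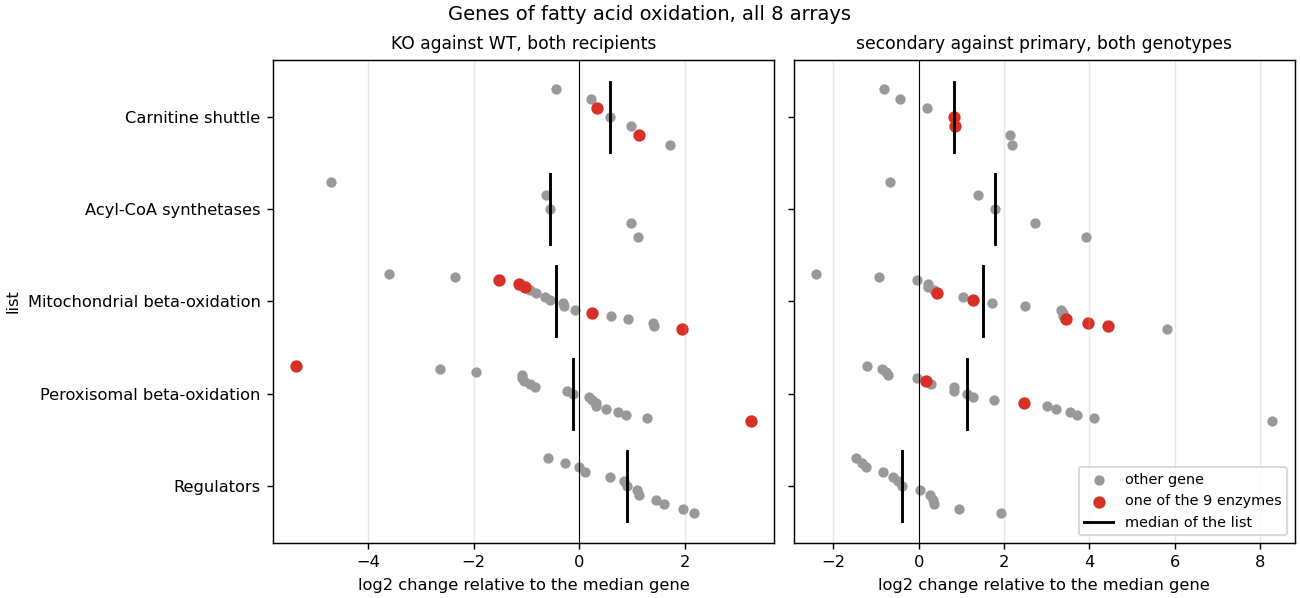
Log2 change relative to the median gene for each gene of the 5 pathway lists (grey points), the 9 enzymes (red points) and the median of each list (black line), for KO against WT over both recipients (left) and for secondary against primary recipients over both genotypes (right), all 8 arrays. On the right the medians are 0.84, 1.80, 1.501 and 1.14 for the carnitine shuttle, the synthetases and the mitochondrial and peroxisomal lists, and -0.39 for the regulators, while Hsdl2 (-5.36) and Ehhadh (3.25) lie at the ends of their list on the left.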

How the data were processed

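RNA was measured in 8 samples on one-colour Agilent arrays. The deposited scanner files hold spot intensities which Agilent Feature Extraction (10.5.1.1) produced, per the file headers; the processed signal is already background-subtracted. The deposited series matrix holds the ratio of each signal to its array's median, which was found by setting its columns (median 1 on each array) against the scanner values, and served as an alternative only. There were 43379 non-control spots an array, and the number of arrays limits the precision.

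Outlier spots were left out, spots of a probe were averaged, and log2 of the processed signal minus the array's 75th percentile was used. Probes were named through the RefSeq gene table of GRCm38.p6, used for names only: 24309 by their accession, 121 by another accession, 6210 by current and 2382 by older symbol; 1768 kept the file's name and 6258 had none. A gene was represented by its probe of highest mean, and a probe of several spots was well above background if most of its spots were. An "at least N-fold" difference is given where no array of the dimmer group was well above background: there each dim signal was replaced by the smallest signal well above background on its array, unless it was itself higher.

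Tests used lmFit and eBayes of limma 3.58.1 (R 4.3.3), checked on simulated data, in 1 fit of 4 groups and, over all arrays, in an additive model of genotype and recipient, with Benjamini-Hochberg adjustment over 22938 genes. P-values test the change before centring on the median gene; overlap was judged on scaled levels. Correlations used levels minus each array's median gene. The members, the pathway lists (carnitine shuttle, synthetases, mitochondrial and peroxisomal beta-oxidation, regulators) and the marker lists were chosen with earlier results of these data known. Named beside the members were the 2 genes of lowest p per comparison from the lists and, for Ehhadh and Hsdl2, the 5 genes with symbols of highest correlation. Marker lists of other blood cells were at 6.86e-05% to 0.0409% of the summed signal each. Alternatives covered background correction, scaling, filters, floor, probes, array weights, slide, replicate number and left-out arrays.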

Additional observations from a re-analysis of the deposited data

How the results depend on the processing

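Under each alternative run, 0 of the 9 enzymes passed in each comparison, apart from the recipient comparison over both genotypes without both dim arrays. That setting leaves 1 array in each primary group, so no test result is read from it. The fit with the replicate number as a block also gave 0 members in each comparison. Each group holds 1 array of each replicate number, so this block could not move the medians. They were 0.54, -2.16, 3.07, 0.98, 1.28, 0.23 and -3.32 in the order of the comparisons below. The correlation of same-numbered deviations was -0.03 to 0.15, so the numbers were not taken to pair the samples. The counts of 9 include Ehhadh and Hsdl2, whose genotype differences are descriptions only. The cause of the shifts below was not tested.

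The median over the 9 enzymes moved by more than its spread as follows. For KO against WT in primary recipients it ran from 0.03 to 1.19 with 1 array left out. For KO against WT in secondary recipients it was -0.85 with normexp, -1.24 with quantile normalization, -1.30 with the mean of a gene's probes, and -2.21 to -0.72 with 1 array left out. For secondary against primary recipients in WT it was 1.90 with normexp, 2.39 with quantile normalization, 4.15 with the mean of probes, 2.12 without both dim arrays, and 2.12 to 3.74 with 1 array left out. In KO it was 0.039 with normexp, and over both genotypes 2.40 with the mean of probes, 2.22 with array weights, 2.557 without both dim arrays, 3.07 with the slide as a block (then the WT arrays alone decide), and 0.90 to 2.05 with 1 array left out. For KO against WT over both recipients it was -0.71 with array weights and -1.49 to 0.80 with 1 array left out. For the interaction it was -2.17 with normexp, -2.28 with quantile normalization, -1.90 with the mean of probes, -1.88 without both dim arrays, and -4.24 to -1.89 with 1 array left out.

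Of 1213 single changes recomputed, 70 differed in sign from the reported value. Of the 440 with a reported size over 3 it was 4. Cpt2 in primary recipients was -0.35 without both dim arrays and -0.27 without the dim KO array. Acadl, without the dim KO array, was -0.96 in primary recipients and 0.51 in the interaction. The totals include settings that could not move a given change, such as leaving out an array of a group not compared. They also include Ehhadh and Hsdl2, which were chosen by their differences, so the totals do not measure stability. Over all genes, the recipient comparison over both genotypes had 0 past the test as reported, and 1 with normexp, 17 with the mean of probes, 77 without both dim arrays, 89 single probes, 108 with array weights, 225 with quantile normalization and 368 with the percentile taken over probes well above background on all arrays, which turned the shift of the median gene from -0.76 to 0.19. In primary recipients 549 genes passed between genotypes without replicate 1 of WT. A filter for signal well above background on all 8 arrays left only Cpt1a, so no median was given. Dim arrays and signals near background limit the primary groups most.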
